A study of Mus musculus with 100 samples.

Results

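The contralateral knee joint of STR/ort mice was compared, 1 day after the opposite knee had been injured, with knee joints of STR/ort mice taken before injury. Libraries were chosen by their labels alone: 5 libraries of uninjured joints at 1-day post-injury and 4 libraries of joints at 0-day, 9 of the 100 libraries of the series. All 17310 genes of the count table were tested.

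The study ruptured the anterior cruciate ligament of right knees with a compressive load of 10 to 12 N and profiled whole knee joints by RNA-seq in 3 strains, MRL/MpJ, C57BL/6 and STR/ort. STR/ort is an inbred strain that develops osteoarthritis spontaneously and is labelled highly susceptible to its post-traumatic form. All mice of the groups used were 10 weeks old at injury or at collection before it, and the labels put their libraries in experimental batch 1. Injured mice were given isoflurane and, after the injury, buprenorphine, and the sources used here do not say that mice of the 0-day group were. Injury of the other knee, anaesthesia, analgesia, handling and the day of collection therefore cannot be told apart. Set beside both groups were injured STR/ort joints at 1-day (n = 5), contralateral STR/ort joints at 1-week (n = 4), and the 0-day (n = 4) and contralateral 1-day (n = 5) joints of C57BL/6 and of MRL/MpJ, which had the same treatments. Each sample was an intact knee with the adjoining ends of both long bones, and some surrounding soft tissue remained on it. Libraries are separate samples by label, and p-values measure the spread between them, which may be in part technical.

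Total counts ran from 8805390 to 12407309 in the 9 libraries, and no library duplicated another. Defining genes of joint tissue were detected in all of them, such as Prg4 (lubricin) at 2498 to 6101 CPM (counts scaled to library size) before injury and 6448 to 9157 CPM in the contralateral joints. Libraries stood apart within both groups. Before injury, libraries 3 and 4 differed from 1 and 2 in fat genes: Ucp1, the uncoupling protein of brown fat, was at 0, 0.118, 24.3 and 17.9 CPM in libraries 1 to 4, and Fasn, fatty acid synthase, at 39.4, 43.01, 161 and 136 CPM. Of the contralateral libraries, library 2 was high for interferon-gamma-induced genes, library 3 was low for interferon-stimulated genes and library 5 was high for Fos, with values given below beside the results they touch.

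Immediate early genes give short-lived messages, mostly for transcription factors and feedback inhibitors, that cells switch on quickly after a stimulus through factors bound at CArG boxes and cAMP response elements. Heat shock chaperones fold and protect proteins, and heat shock factor drives them through repeats of GAA and its complement in their promoters. Whole joints also hold marrow, immune cells and some muscle, so gene levels vary with the mix of tissues in a sample.

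At 1-day, 1736 genes differed between the contralateral and the before-injury joints, 1201 lower and 535 higher (edgeR quasi-likelihood test, Benjamini-Hochberg adjusted p below 0.05 and a fold change above 1.5). These are 10.0% of the genes tested, 6.94% lower and 3.09% higher. Changes of more than 2-fold were found for 482 lower and 122 higher genes, and the median log2 fold change of all genes was 0.08. Scaled to the 25 housekeeping genes of the study, 1377 genes were lower and 304 higher, 81.9% lower against 69.2%. Without before-injury libraries 3 and 4, 1004 genes were called, 778 lower and 226 higher.

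The count of called genes also moved with the treatment of muscle content. Summed CPM of 18 fast muscle genes lay between 113000 and 132000 before injury and between 44900 and 78400 in the contralateral joints. With that level as a covariate 363 genes were called, 145 lower and 218 higher, of which 241 were also called in the same direction without it. With 1 factor of unwanted variation estimated from the housekeeping genes (RUVg), 102 genes were called, of which 75 were shared. This factor followed the fast muscle level over the 40 uninjured libraries (Pearson's r = 0.878, a description), and 71.6% of its variance among the 9 libraries lay between both groups. In bulk tissue, fewer cells of a type and less RNA per cell cannot be told apart.

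Of the 107 called genes that were named by rule, 18 were called in the same direction under every alternative tried. Those that fell were the immediate early genes Egr2, Egr3, Jun, Cyr61 and Nr4a1, the feedback regulators Errfi1 and Spry4, the Notch target Hes1, the chaperone genes Hspa1a, Hspa1b, Dnajb1 and Dnaja1, the inflammatory genes Cxcl1, Ptgs2 and Cebpb, and the interferon-induced gene Isg15. Those that rose were Timd4, a phosphatidylserine receptor of resident macrophages, and Col14a1, a collagen of dense connective tissue.

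Immediate early genes had the lowest median of the lists. Of 29 measured, 19 fell and none rose, with a median log2 fold change of -1.345. In 21 of the 29 genes (72.4%) every before-injury library was above every contralateral library, against 12.5% of all genes. Summed CPM of the list was 5000, 4730, 3630 and 3360 before injury and 1460, 1460, 1590, 1760 and 2460 in the contralateral joints. The number that fell was 17 to 23 under the alternatives, 20 with RUVg and 21 with the muscle covariate.

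Egr2, a zinc finger transcription factor (chr10:67534469-67542188 in GRCm38), was at 86.6, 89.2, 58.05 and 50.6 CPM in the 4 before-injury libraries and at 4.82, 4.59, 4.30, 6.85 and 13.02 CPM in the 5 contralateral libraries. Every before-injury library was far above every contralateral one, and the log2 fold change was -3.36 (SE 0.20, adjusted p = 2.07e-15). Egr3, its close relative, was at 20.8, 30.2, 22.03 and 14.7 CPM against 2.11, 1.59, 1.77, 2.28 and 2.56 CPM, with a log2 fold change of -3.36 (SE 0.21, adjusted p = 1.3e-14). Injured joints of the same day ran from 4.19 to 13.4 CPM for Egr2 and from 1.02 to 2.07 CPM for Egr3.

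Jun, the DNA-binding partner of Fos in AP-1 (chr4:95049036-95052222), was at 270.4, 254, 235 and 233 CPM before injury and at 66.5, 81.2, 74.5, 88.5 and 102 CPM in the contralateral joints (log2 fold change -1.56, SE 0.12, adjusted p = 9.58e-12). The spread within each group was small beside the gap between them. Nr4a1, an orphan nuclear receptor (chr15:101253902-101274795), was at 383, 366, 287 and 264 CPM against 40.2, 43.6, 52.4, 104 and 94.6 CPM (log2 fold change -2.25, SE 0.21, adjusted p = 4.86e-10). Cyr61, a matricellular protein, was at 410.2, 415, 239.9 and 193 CPM against 37.8, 44.8, 53.5, 80.6 and 88.3 CPM (log2 fold change -2.34, SE 0.20, adjusted p = 5.22e-11). In both genes before-injury libraries 1 and 2 were above 3 and 4.

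Fos falls outside the naming rule and was chosen after its values were seen. It was at 517, 435, 155 and 155 CPM before injury and at 15.4, 15.4, 38.4, 70.1 and 274 CPM in the contralateral joints. Contralateral library 5 lay above before-injury libraries 3 and 4, and the fall was called (log2 fold change -1.90, SE 0.44, adjusted p = 0.00107). Injured library 5 was also the highest of its group, at 265 CPM against 26.3 to 39.1 CPM in the other 4. Egr1, chosen in the same way, was at 657, 673, 450.1 and 374 CPM against 23.9, 24.4, 56.1, 57.7 and 193 CPM, with no overlap (log2 fold change -2.89, adjusted p = 5.54e-08). Myc, a growth-promoting factor on the list, was at 33.99 to 38.4 CPM against 22.6 to 34.7 CPM and was not called (adjusted p = 0.0865).

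**Figure D1:**
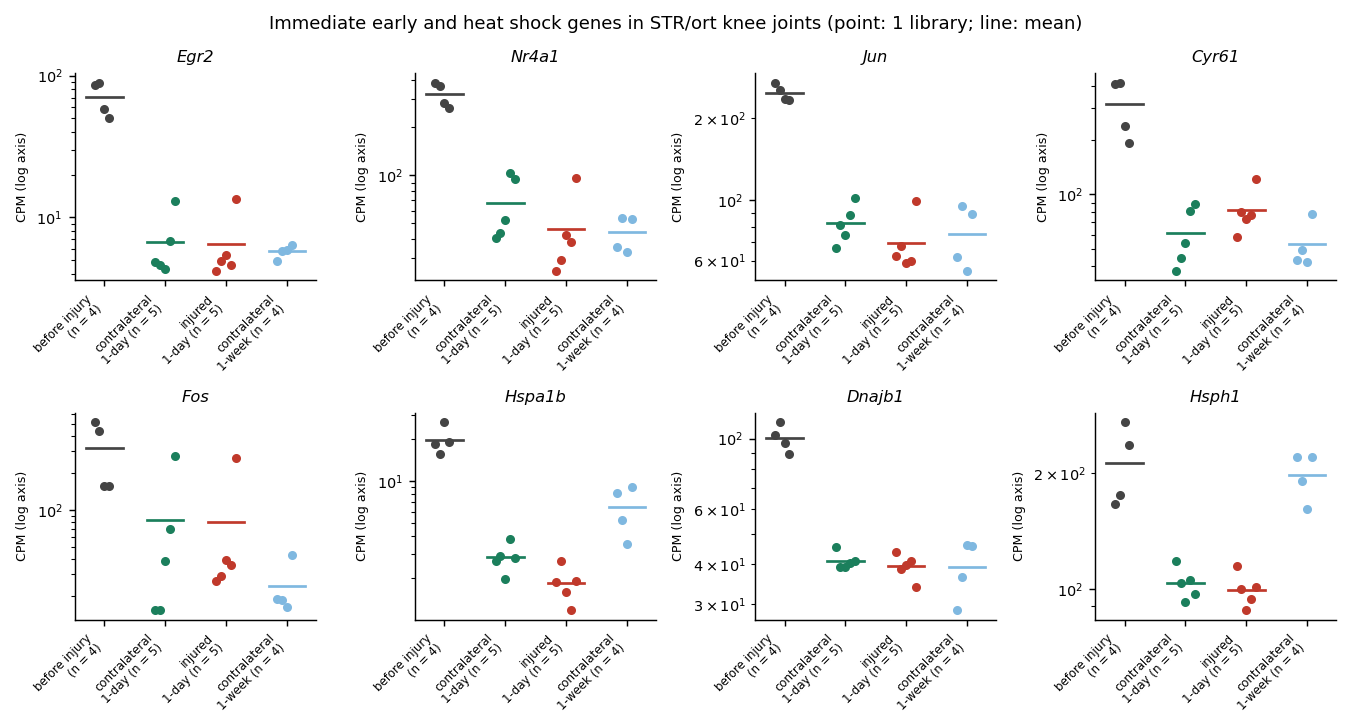
CPM on log axes of 5 immediate early genes and 3 chaperone genes in each STR/ort library before injury, at 1-day in the contralateral and the injured joint, and at 1-week in the contralateral joint. Points are libraries and lines are group means. Egr2 runs from 50.6 to 89.2 CPM before injury and from 4.30 to 13.02 CPM in the contralateral joint, and Hsph1 from 92.5 to 118 CPM at 1-day and from 161 to 219.7 CPM at 1-week.

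Promoters of genes on the list are shown because the genes moved together and the factors that drive them bind known short motifs. The 200 bases before the annotated start were read from RefSeq (GRCm38.p6), where 22 of the 29 genes had an entry. For Egr2, which has 5 starts, the stretch with the most matches is printed. Only stretches with a match are shown, and that of Nr4a1 held none. Capitals mark a CArG box in Egr2 and Zfp36 with a TTCNNGAA match in Egr2, and TGACGTCA or its core TGACGT, on either strand, in Fos, Dusp1 and Btg2.
Egr2 (chr10:67537366-67537565, plus strand): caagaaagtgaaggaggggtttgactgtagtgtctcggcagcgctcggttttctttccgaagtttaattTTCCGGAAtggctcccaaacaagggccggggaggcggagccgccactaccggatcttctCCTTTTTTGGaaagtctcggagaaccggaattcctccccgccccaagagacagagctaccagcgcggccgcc
Zfp36 (chr7:28379229-28379428, minus strand): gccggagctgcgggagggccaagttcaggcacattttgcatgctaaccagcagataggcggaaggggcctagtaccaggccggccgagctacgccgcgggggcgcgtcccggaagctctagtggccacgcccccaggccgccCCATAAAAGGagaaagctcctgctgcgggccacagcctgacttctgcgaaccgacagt
Fos (chr12:85473690-85473889, plus strand): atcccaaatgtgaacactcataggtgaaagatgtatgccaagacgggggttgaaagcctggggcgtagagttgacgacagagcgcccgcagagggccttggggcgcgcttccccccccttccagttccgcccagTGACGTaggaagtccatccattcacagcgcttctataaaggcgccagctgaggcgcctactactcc
Dusp1 (chr17:26508473-26508672, minus strand): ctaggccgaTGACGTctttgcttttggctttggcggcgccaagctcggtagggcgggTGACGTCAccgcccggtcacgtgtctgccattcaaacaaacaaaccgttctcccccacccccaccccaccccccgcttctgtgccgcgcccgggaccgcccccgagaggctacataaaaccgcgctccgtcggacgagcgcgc
Btg2 (chr1:134079156-134079355, minus strand): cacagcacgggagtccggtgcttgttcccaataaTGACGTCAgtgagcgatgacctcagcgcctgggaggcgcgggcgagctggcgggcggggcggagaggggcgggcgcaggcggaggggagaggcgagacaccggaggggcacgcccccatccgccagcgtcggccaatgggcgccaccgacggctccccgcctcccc

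On either strand, TGACGT was found in 7 of the 22 genes (31.8%) and in 6.62% of all 27025 genes with an entry. TGACGTCA, which contains it, was found in 3 of the 22 (13.6%) against 1.69% of all genes, and the CArG box in 2 (9.09%) against 1.32%. A gene was counted when any of its annotated starts held the motif. Egr2 is therefore among the 7 genes with TGACGT, although its printed stretch has none. Of the 22 genes 15 fell, among them all 7. In all, 5 motifs were searched, and TGACGT was added after the first search had been seen. A match describes letters in a window and not binding. Dusp1, a phosphatase that shuts off MAP kinases, was at 120.4, 108, 75.5 and 74 CPM before injury and at 22.8, 18.6, 35.1, 40.7 and 51.4 CPM in the contralateral joints, a log2 fold change of -1.46. Zfp36, which destabilises cytokine messages, had a log2 fold change of -1.56, and Btg2, an antiproliferative gene, one of -1.08.

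Hes1, Errfi1 and Spry4 were among the genes with the smallest adjusted p of those that fell. Hes1, a transcriptional repressor induced by Notch, was at 53.4, 50, 62.3 and 49.7 CPM before injury and at 22, 25.1, 22.2, 22.5 and 24.2 CPM in the contralateral joints (log2 fold change -1.185, SE 0.08, adjusted p = 1.02e-13). Errfi1, an inhibitor of the EGF receptor, was at 379, 356, 413 and 361 CPM against 99.01, 94.1, 102, 128 and 116 CPM (log2 fold change -1.78, adjusted p = 8.63e-11). Spry4, an inhibitor of MAP kinase signalling, was at 23.8 to 29.9 CPM against 8.36 to 11.7 CPM (log2 fold change -1.39, adjusted p = 4.86e-10). None of these genes overlapped between the groups.

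Heat shock chaperones fell as well. Of 19 measured, 10 fell and none rose, with a median log2 fold change of -0.62, where 6.94% of all genes fell. In 16 of the 19 (84.2%) all before-injury libraries lay above all contralateral ones, against 12.5% of all genes. The number that fell was 4 with RUVg, 6 with the muscle covariate and 8 to 11 when any 1 library was left out. Hspa1b, an inducible HSP70 (chr17:34956429-34959238), was at 18.3, 15.5, 26.6 and 19.02 CPM before injury and at 2.64, 2.89, 1.96, 3.83 and 2.80 CPM in the contralateral joints (log2 fold change -2.78, SE 0.22, adjusted p = 9.58e-12). Hspa1a, its near-identical copy (chr17:34969359-34972156), was at 9.83 to 14.7 CPM against 0.56 to 2.03 CPM (log2 fold change -3.07, SE 0.31, adjusted p = 4.42e-09). Reads of both copies may have been split or lost in counting, so their single values are uncertain.

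Dnajb1, a co-chaperone of HSP70, was at 102, 113, 96.9 and 89.2 CPM against 45.3, 39.2, 39.2, 40.4 and 41.04 CPM (log2 fold change -1.26, SE 0.12, adjusted p = 4.86e-10). The contralateral libraries lay close together, well below the lowest before-injury library. Dnaja1, another co-chaperone, was at 300.2 to 356 CPM against 179 to 212 CPM (log2 fold change -0.67, adjusted p = 1.47e-07). Hspa5, the chaperone of the endoplasmic reticulum, was at 668 to 923 CPM against 663 to 789 CPM and was not called (adjusted p = 0.56).

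Promoter stretches of 4 chaperone genes are shown, with GAANNTTC or TTCNNGAA in capitals, because heat shock elements recur in this list. Only stretches with a match are printed, and that of Dnajb1 held none. Those of Hspa1a and Hspa1b share 199 of 200 bases.
Hspa1a (chr17:34972157-34972356, minus strand): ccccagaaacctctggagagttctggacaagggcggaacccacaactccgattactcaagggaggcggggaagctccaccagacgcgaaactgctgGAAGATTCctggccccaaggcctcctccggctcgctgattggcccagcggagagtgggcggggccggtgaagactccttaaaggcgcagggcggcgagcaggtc
Hspa1b (chr17:34959239-34959438, minus strand): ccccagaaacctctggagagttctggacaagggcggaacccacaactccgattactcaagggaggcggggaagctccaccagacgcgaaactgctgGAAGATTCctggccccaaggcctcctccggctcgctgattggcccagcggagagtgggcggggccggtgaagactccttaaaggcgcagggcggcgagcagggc
Hsph1 (chr5:149636337-149636536, minus strand): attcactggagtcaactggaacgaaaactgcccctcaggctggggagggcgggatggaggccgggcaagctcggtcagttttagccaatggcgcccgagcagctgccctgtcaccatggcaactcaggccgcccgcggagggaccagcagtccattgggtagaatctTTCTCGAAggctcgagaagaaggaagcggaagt
Hspb1 (chr5:135887719-135887918, plus strand): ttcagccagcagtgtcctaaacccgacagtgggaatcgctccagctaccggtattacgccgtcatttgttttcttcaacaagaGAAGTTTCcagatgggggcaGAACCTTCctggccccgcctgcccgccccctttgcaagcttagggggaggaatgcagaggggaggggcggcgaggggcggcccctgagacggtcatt

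GAANNTTC was found in 8 of the 15 chaperone genes with an entry (53.3%) and in 6.22% of all genes. TTCNNGAA was found in 4 (26.7%) against 6.53% of all genes. Both motifs read the same on either strand. Among the 9 genes that fell and have an entry, 5 held GAANNTTC and 1 held TTCNNGAA. Hsph1, an HSP110 (chosen after its values were seen), was at 166, 176, 271 and 236 CPM before injury and at 118, 104, 92.5, 106 and 96.8 CPM in the contralateral joints, a log2 fold change of -1.01. Before-injury libraries 3 and 4 were above 1 and 2, the reverse of their order for Nr4a1 and Cyr61.

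The same comparison was made in C57BL/6 and MRL/MpJ joints to ask whether the change was particular to STR/ort. In C57BL/6 11 genes were called between contralateral 1-day and 0-day joints (0.0635%), 1 higher (0.00578%) and 10 lower (0.0578%). In MRL/MpJ 15 were called (0.0867%), 8 higher (0.0462%) and 7 lower (0.0404%). Of these, 2 and 3 were also among the 1736. At an unadjusted p below 0.05 there were 1168 and 1459 genes, against 6948 in STR/ort. Tested as an interaction, the STR/ort change differed from that of C57BL/6 for 1598 genes (9.23%) and from that of MRL/MpJ for 1307 genes (7.55%). Both differences were called for 638 of the genes that fell and 134 of those that rose. The interactions share the STR/ort libraries with the first comparison, so these counts are not independent of it. Without before-injury STR/ort libraries 3 and 4 the interactions were called for 830 and 403 genes, with the muscle covariate for 239 and 265, and with RUVg for 169 and 47.

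Immediate early genes were high in STR/ort joints before injury. Their summed CPM was 3360 to 5000 there, 1210 to 1320 in C57BL/6 and 1010 to 1060 in MRL/MpJ joints before injury. At 1-day it was 1460 to 2460 in STR/ort, 1110 to 1230 in C57BL/6 and 1080 to 1210 in MRL/MpJ contralateral joints. The median log2 fold change of the list was -0.10 in C57BL/6 and 0.09 in MRL/MpJ. The STR/ort change was lower for 18 of the 29 genes against C57BL/6, where 5.59% of all genes were lower, and for 20 against MRL/MpJ, where 5.18% were. Egr2 had the smallest adjusted p of the genes lower against C57BL/6 (log2 difference -3.58, adjusted p = 2.21e-09), and Jun of those lower against MRL/MpJ (log2 difference -1.85, adjusted p = 1.98e-08).

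Heat shock chaperones differed likewise, with 9 genes lower against C57BL/6 and 10 against MRL/MpJ. Their summed CPM was 9480 to 11300 in STR/ort joints before injury and 6950 to 7730 in the contralateral joints. It was 6690 to 7150 before injury and 6190 to 7570 at 1-day in C57BL/6, and 7800 to 8160 and 8060 to 8570 in MRL/MpJ. Among genes higher against C57BL/6, Glt8d1, a glycosyltransferase, had the smallest adjusted p (log2 difference 0.89, adjusted p = 1.81e-06), and among those higher against MRL/MpJ, Lipc, hepatic lipase (log2 difference 1.45, adjusted p = 4.7e-06).

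**Figure D2:**
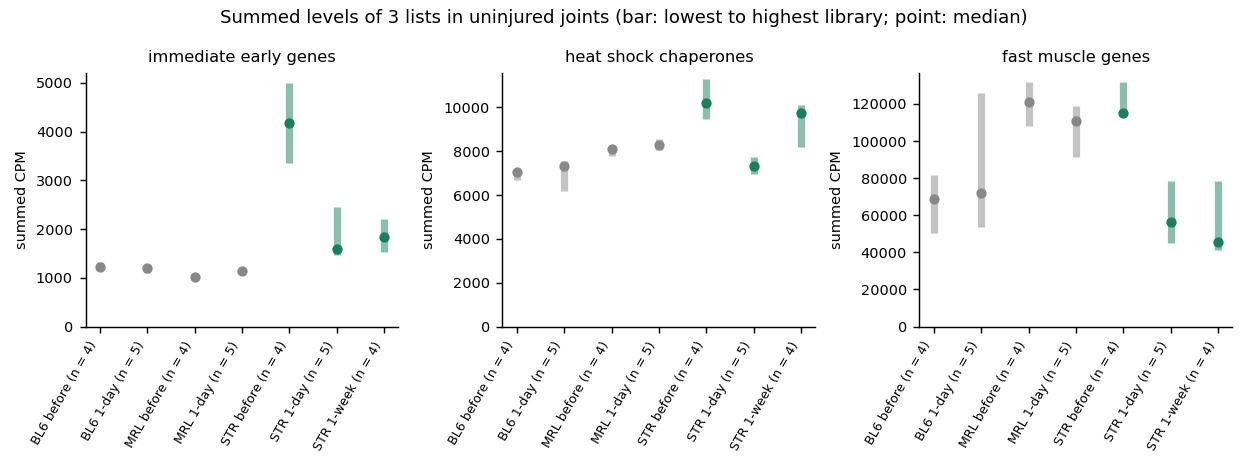
Summed CPM of immediate early, heat shock and fast muscle genes in uninjured joints of the 3 strains before injury and at 1-day, with STR/ort also at 1-week. Bars run from the lowest to the highest library and points are medians. Immediate early genes stand at 3360 to 5000 CPM in STR/ort joints before injury and under 2500 CPM in the other groups plotted.

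Every fast muscle gene measured was lower. All 18 fell, where 6.94% of all genes did, with a median log2 fold change of -1.04. There was no overlap between groups in any of them, against 12.5% of all genes without overlap and higher before injury. None was called with RUVg or with the muscle covariate, which is built from them. Ckm, muscle creatine kinase, was at 8226, 8112, 10250 and 10460 CPM before injury and at 3108, 3585, 3622, 5603 and 2725 CPM in the contralateral joints (log2 fold change -1.28, SE 0.21, adjusted p = 1.22e-05). Myh2, a myosin heavy chain of fast fibres, was at 1168 to 1571 CPM against 351 to 833 CPM. Of 11 slow muscle genes 6 fell, none with RUVg or the muscle covariate, 4 without before-injury library 4 and 10 without contralateral library 4. Summed fast muscle CPM of the other strains was 50700 to 81700 before injury and 53800 to 126000 at 1-day in C57BL/6, and 108000 to 132000 and 91300 to 119000 in MRL/MpJ. The STR/ort change was lower for 17 of the 18 genes against C57BL/6 and for 11 against MRL/MpJ.

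Genes of energy metabolism were lower too. Of 20 mitochondrial respiratory chain genes 17 fell (median log2 fold change -0.75), of 19 genes of fatty acid oxidation and fasting 12 fell (-0.81), and of 17 genes of hypoxia and glycolysis 7 fell (-0.57). With the muscle covariate 2, 1 and 1 of them fell, and with RUVg none. Cox6a2, the muscle isoform of a cytochrome oxidase subunit, was at 277, 334, 454 and 588 CPM before injury and at 96.97, 96.9, 128, 167 and 77.05 CPM in the contralateral joints (log2 fold change -1.84, adjusted p = 1.1e-07). Ppara, a nuclear receptor that drives fatty acid oxidation, was at 5.24, 5.21, 9.50 and 7.98 CPM against 1.81, 1.70, 1.03, 1.83 and 0.989 CPM (log2 fold change -2.21, SE 0.27, adjusted p = 2.17e-07). Neither gene overlapped between the groups.

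Of 16 genes of white fat and lipid storage 4 fell and 1 rose, and of 20 genes of fatty acid and sterol synthesis 5 fell. Over all genes 6.94% fell and 3.09% rose. Without before-injury libraries 3 and 4, none of the first list and 3 of the second fell. With RUVg and with the muscle covariate no gene of either list was called. Fasn was at 35.9, 41.9, 51.7, 38.5 and 32.4 CPM in the contralateral joints, against the before-injury values given above. Cfd, the adipocyte protease adipsin, was the gene that rose, at 41.9 to 52.6 CPM before injury and 59.5 to 117 CPM in the contralateral joints (log2 fold change 0.87, adjusted p = 0.00231).

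Glucocorticoid-responsive genes fell in part, 9 of 20 with none higher (median log2 fold change -0.48), 1 with RUVg, 2 with the muscle covariate and 5 without before-injury libraries 3 and 4. Zbtb16, a transcription factor induced by glucocorticoids, was at 27.6, 25.7, 38.1 and 38.9 CPM before injury and at 14.9, 13.5, 10.1, 15.7 and 11.3 CPM in the contralateral joints (log2 fold change -1.28, SE 0.18, adjusted p = 1.49e-06). Fkbp5, a classical target of the receptor, was at 45.5 to 50.9 CPM against 46.3 to 53.6 CPM and did not pass (adjusted p = 0.772). Of 19 clock genes 3 fell, where 6.94% of all genes did, and none of the list fell with RUVg or the muscle covariate. Among those that fell was Per1, a clock repressor, at 80.1 to 101 CPM against 34.7 to 70.4 CPM.

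**Figure D3:**
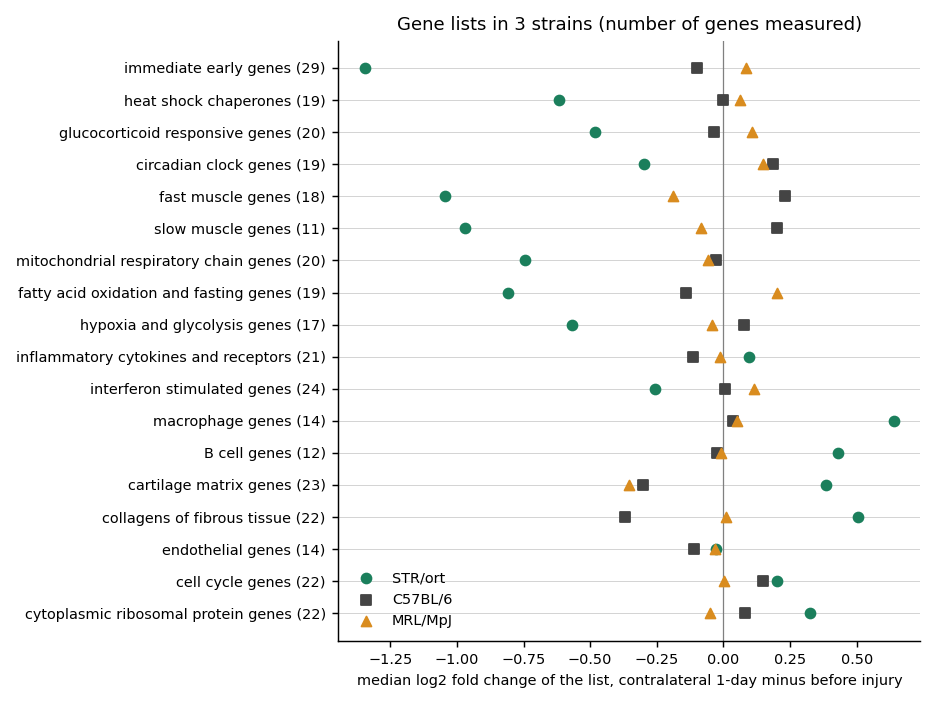
Median log2 fold change from before injury to contralateral 1-day of 18 gene lists in joints of STR/ort, MRL/MpJ and C57BL/6. Immediate early genes are at -1.345 in STR/ort, -0.10 in C57BL/6 and 0.09 in MRL/MpJ, and macrophage genes at 0.64, 0.04 and 0.05.

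Macrophage genes rose moderately in the contralateral joints. Of 14 measured 7 rose and none fell, with a median log2 fold change of 0.64, and in 8 (57.1%) all contralateral libraries were above all before-injury ones, against 8.84% of all genes. Mrc1, the mannose receptor, was at 91.8, 75.8, 70.2 and 79.4 CPM before injury and at 158, 122, 109, 140.3 and 119 CPM in the contralateral joints (log2 fold change 0.74, SE 0.10, adjusted p = 1.01e-06). Cd68, a lysosomal protein, was at 55.3, 48.3, 39.2 and 41.97 CPM against 83.9, 74.8, 72.03, 68.9 and 77.1 CPM (log2 fold change 0.74, SE 0.10, adjusted p = 2.02e-06). Neither gene overlapped between the groups. With RUVg no gene of the list was called and with the muscle covariate 2 were, at medians of 0.43 and 0.47.

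Timd4 was at 9.70, 9.24, 7.41 and 8.59 CPM before injury and at 15.5, 16.6, 14.3, 17.5 and 17.9 CPM in the contralateral joints (log2 fold change 0.94, SE 0.12, adjusted p = 4.86e-07). All contralateral libraries exceeded all before-injury ones. C1qc, a chain of the complement component C1q that macrophages make, was at 10.2 to 15.2 CPM against 20.8 to 24.9 CPM (log2 fold change 0.84). Other genes with small adjusted p among those that rose were Casp1, the inflammasome protease, with a log2 fold change of 0.69, Hpgds, a prostaglandin D synthase, with 0.67, and Capg, an actin-capping protein, with 0.72.

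Median log2 fold changes of other blood cell lists were 0.51 for T cell, 0.48 for mast cell, 0.43 for B cell and 0.29 for neutrophil granule genes. Summed CPM of T cell genes was 48.2 to 60.1 before injury and 73.3 to 78.5 in the contralateral joints, without overlap. Of 12 B cell genes 2 rose, Cd79b, a chain of the B cell receptor, from 23.7 to 42.3 CPM to 41.97 to 58.5 CPM, and Pax5, the B-lineage factor, from 6.16 to 8.83 CPM to 10.4 to 13.6 CPM. Of 11 T cell genes 2 rose, of 9 mast cell genes 3 and of 16 neutrophil granule genes 1, with none lower, where 3.09% of all genes rose. Leaving out 1 library gave 1 to 5 B cell genes, most without before-injury or contralateral library 1 and fewest without before-injury library 4. It gave 0 mast cell genes and 0 neutrophil genes without before-injury library 3, 1 and 0 without before-injury library 4 and 1 and 0 without contralateral library 5. No gene of these 4 lists was called with RUVg or with the muscle covariate. Medians of T cell, mast cell, B cell and neutrophil granule genes were 0.22, 0.31, 0.28 and -0.03 with RUVg. With the covariate they were 0.29, 0.73, 0.24 and 0.02. Hba-a2, an alpha globin of red cells, was at 0.835 to 2.61 CPM against 3.01 to 25.5 CPM and was the erythroid gene that rose among 11.

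Matrix genes rose in part. Of 22 collagens of fibrous tissue and related genes 6 rose (median log2 fold change 0.51), 2 with RUVg, 5 with the muscle covariate and 2 with housekeeping scaling. The median was 0.55 with RUVg and 0.52 with the covariate. Without contralateral library 1 10 rose, without contralateral library 2 2 did and without before-injury library 4 3 did, and 1 rose with the replicate block. Col14a1 was at 82, 52.7, 84.99 and 72.03 CPM before injury and at 99.5, 179, 94.2, 161 and 97.9 CPM in the contralateral joints (log2 fold change 0.82, SE 0.19, adjusted p = 0.00089). Contralateral libraries 2 and 4 were the highest. Against C57BL/6, where the list's own median was -0.37, the STR/ort change was higher for 19 of the 22 genes (3.65% of all genes were), and against MRL/MpJ for 2 (2.37%).

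Of 23 cartilage matrix genes 4 rose, where 3.09% of all genes did, and with RUVg and the muscle covariate 0 and 1 did. Without contralateral library 5 2 rose, without contralateral library 3 6 did, and 2 did with housekeeping scaling. Prg4, the lubricant of the joint surface, was at 4297, 2498, 4481 and 6101 CPM before injury and at 6448, 9157, 7442, 7512 and 8214 CPM in the contralateral joints (log2 fold change 0.87, SE 0.22, adjusted p = 0.00239). The lowest contralateral library lay just above the highest before-injury one. Comp, cartilage oligomeric matrix protein, was at 386 to 527 CPM against 525 to 1022 CPM (log2 fold change 0.79). Of 12 osteoclast genes 2 rose and 1 fell, where 3.09% of all genes rose and 6.94% fell. With RUVg and the muscle covariate none of the list rose. Without before-injury library 3 or contralateral library 4 5 rose, and without before-injury library 2 or contralateral library 3 4 did. Ctsk, their collagen-degrading protease, was at 274 to 361 CPM against 379 to 639.9 CPM, and Tnfsf11, the osteoclast-inducing ligand, at 8.05 to 10.7 CPM against 3.92 to 7.005 CPM.

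Interferon genes differed widely among contralateral libraries. Of 25 interferon-gamma-induced genes, a list drawn up after values had been seen, 17 rose, and without contralateral library 2 3 rose and 1 fell. None rose with RUVg, 1 with the muscle covariate, 4 in a fit of both groups alone, 5 with the replicate block, 11 without before-injury library 3 and 3 without before-injury libraries 3 and 4. Their summed CPM was 694 to 863 before injury and 995, 2830, 737, 924 and 1100 in contralateral libraries 1 to 5. Iigp1, an interferon-induced GTPase that attacks intracellular parasites (chosen after its values were seen), was at 273 CPM in contralateral library 2, at 9.90 to 25.2 CPM in the other 4 and at 26.8 to 28.96 CPM before injury. Gbp2, a guanylate-binding protein, was at 114 CPM in library 2 and at 13.7 to 24.4 CPM in the other 4.

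Injured joints showed the same pattern by replicate number. Injured library 2 had 277 CPM of Iigp1 against 17.4 to 30.8 CPM in the other injured libraries, and 123 CPM of Gbp2 against 14.4 to 18.7 CPM. Library 3 was lowest for Isg15, a ubiquitin-like protein induced by interferon, at 4.76 CPM in the contralateral and 4.97 CPM in the injured joints. Ifi44, also interferon-induced and chosen after its values were seen, was at 0.187 and 2.48 CPM there, against 12.1 to 31.6 and 7.26 to 41.6 CPM in the other contralateral and injured libraries. The labels do not say whether a number stands for 1 mouse. Of 24 interferon-stimulated genes 6 fell and 2 rose, and 9 fell and none rose without contralateral library 2. Without before-injury library 1 or contralateral library 3, 3 fell, and 2 fell and none rose in a fit of both groups alone.

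**Figure D4:**
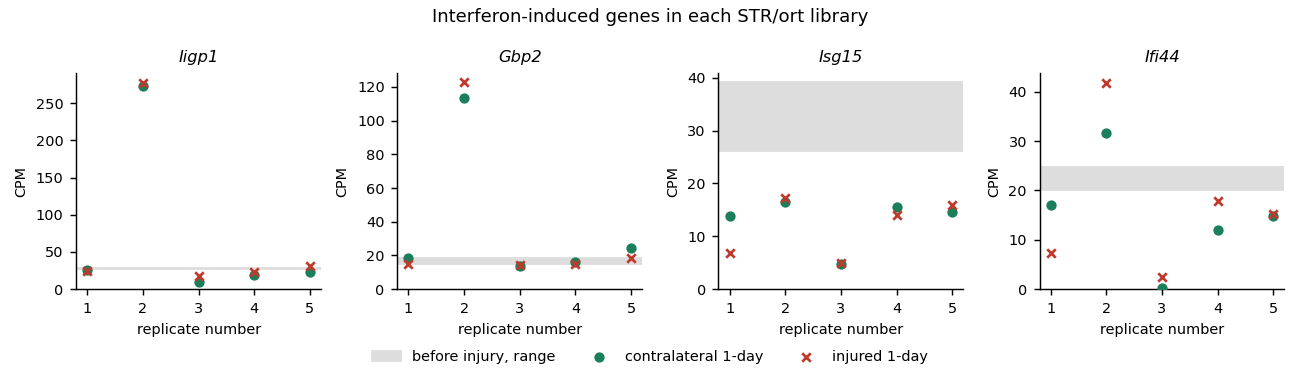
CPM of 4 interferon-induced genes by replicate number in contralateral and injured STR/ort joints at 1-day, with the range of the 4 before-injury libraries shaded. Library 2 of both joints is high for Iigp1 (273 and 277 CPM) and Gbp2 (114 and 123 CPM), and library 3 of both is low for Isg15 (4.76 and 4.97 CPM).

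Isg15 differed between the groups in every library. It was at 29.8, 31.9, 26.2 and 39.1 CPM before injury and at 13.8, 16.4, 4.76, 15.5 and 14.6 CPM in the contralateral joints (log2 fold change -1.25, SE 0.22, adjusted p = 4.99e-05). At 1-week it was at 20.6 to 36.6 CPM.

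Injured joints were set beside the contralateral ones, the usual uninjured reference, to see how the choice of reference bears on single genes. Between injured and contralateral STR/ort joints 631 genes were called at 1-day (3.65%), 259 higher (1.5%) and 372 lower (2.15%). Without injured library 5, 1008 were called, 274 higher and 734 lower. Of the 1201 genes that fell in the contralateral joints, 27 were called higher and 136 lower in injured than in contralateral joints. Of the 535 that rose, 24 were called higher and 46 lower. Between injured and before-injury joints 2665 were called (15.4%), 836 higher (4.83%) and 1829 lower (10.6%), with 19 of the 29 immediate early genes lower and 1 higher. The comparison of injured with contralateral joints shares the contralateral libraries with that of contralateral with before-injury joints, so the change of the injured from the before-injury joints is given beside it.

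Cxcl1, a neutrophil-attracting chemokine, was at 37.5, 19.4, 14.2 and 11.5 CPM before injury, at 1.05, 1.90, 1.31, 6.76 and 4.62 CPM in the contralateral joints and at 19.99, 31.1, 28.4, 29.4 and 35.7 CPM in the injured joints. Its log2 fold change was -2.70 (adjusted p = 2.47e-07) from before injury to contralateral and 3.20 (adjusted p = 6.49e-05) from contralateral to injured. From before injury to injured it was 0.46 (adjusted p = 0.331), and the libraries of those groups overlapped.

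Ptgs2, the inducible cyclooxygenase of prostaglandin synthesis, was at 7.52 to 14.2 CPM before injury, 1.58 to 2.89 CPM in the contralateral and 6.42 to 17.2 CPM in the injured joints. The log2 fold changes were -2.13 (adjusted p = 1.57e-08) in the contralateral joint, 2.19 (adjusted p = 4.5e-05) between injured and contralateral, and 0.03 (adjusted p = 0.928) between injured and before injury. Adamts1, an aggrecan-cleaving protease, was at 103 to 126, 47.3 to 71.5 and 106 to 148 CPM in the same order. The muscle ubiquitin ligase genes Fbxo32 and Trim63 were at 155 to 324, 60.9 to 126 and 166 to 347 CPM and at 84.8 to 129, 40.2 to 64.7 and 90.6 to 198 CPM. Pdk4, a kinase that spares glucose (chosen after its values were seen), was at 169 to 292, 41.9 to 107 and 169 to 279 CPM. Injured joints were not called different from before-injury joints for Adamts1, Fbxo32, Trim63 and Pdk4, with log2 fold changes of 0.09, -0.06, 0.32 and -0.06. Summed fast muscle CPM was 24200 to 62000 in the injured joints, against 113000 to 132000 before injury. Levels of Fbxo32 and Trim63 per amount of muscle were not tested. The contralateral falls of Adamts1, Fbxo32 and Trim63 were not called with RUVg (log2 fold changes of -0.55, -0.23 and 0.03) or with the muscle covariate (-0.43, -0.44 and -0.03). Cxcl1 and Ptgs2 were called under both, with log2 fold changes of -3.40 and -2.53 with RUVg and -2.30 and -2.21 with the covariate.

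**Figure D5:**
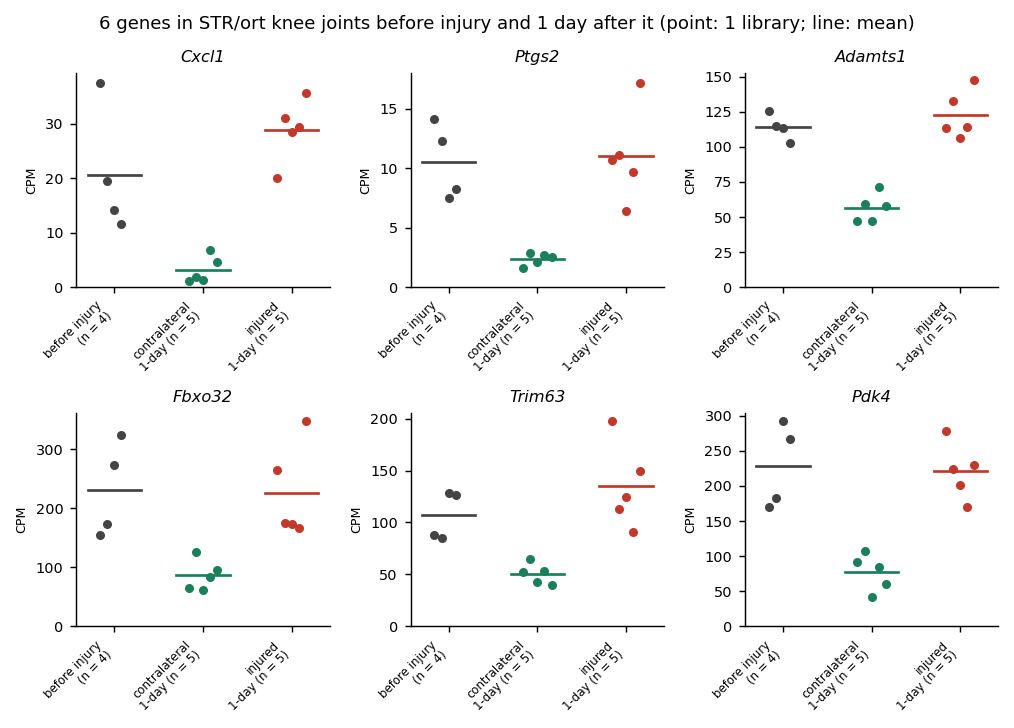
CPM of 6 genes in each STR/ort library before injury and in the contralateral and injured joints at 1-day. The genes were picked as examples of a low level in the contralateral joint alone. Points are libraries and lines are group means. Contralateral libraries lie below those of both other groups in each of the 6 genes, as for Cxcl1 at 1.05 to 6.76 CPM against 11.5 to 37.5 CPM before injury and 19.99 to 35.7 CPM after it.

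Other inflammatory genes were chosen after their values were seen. Il6 was at 0.209 to 2.62 CPM before injury, 0.365 to 0.989 CPM in the contralateral and 5.26 to 9.92 CPM in the injured joints, and its contralateral change was not called (log2 fold change -1.09, adjusted p = 0.0563). Il1b was at 34.6 to 50.4, 26.8 to 43.8 and 46.04 to 68.97 CPM. Of 8 neutrophil-attracting CXC chemokines and related genes 1 fell in the contralateral joint, Cxcl1 (median -0.16). Of 17 monocyte-attracting CC chemokines and related genes 2 rose and none fell (median 0.39), where 3.09% of all genes rose. No gene of the second list was called without contralateral library 2, with RUVg or with the muscle covariate. Of 21 inflammatory cytokines and receptors 1 fell in the contralateral joint, where 6.94% of all genes did. In the injured joint 9 were higher than in the contralateral joint (1.5% of all genes were) and 8 were higher than before injury (4.83%). Cebpb, a factor of the acute-phase response, was at 53.9 to 99.8 CPM before injury, 17.1 to 31.04 CPM in the contralateral and 29.8 to 40.8 CPM in the injured joints, lower in both than before injury.

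Between 1-day and 1-week 324 genes of the contralateral joint were called (1.87%), 196 higher and 128 lower. This comparison shares the contralateral 1-day libraries with the first. Fitted on the 9 libraries of these groups alone, 90 genes were called, and without 1-week library 2 208 were. Summed CPM of immediate early genes was 1540 to 2210 at 1-week, with 3 genes lower and 1 higher than at 1-day. Against before-injury joints 2383 genes were called at 1-week (13.8%), 1292 lower (7.46%) and 1091 higher (6.30%), with 19 of the 29 immediate early genes lower and 10 of the 14 macrophage genes higher. Heat shock chaperones had 3 genes higher at 1-week than at 1-day (1.13% of all genes were), at a summed CPM of 8170 to 10100. Against before-injury joints 1 gene of that list was higher and 7 were lower. Hsph1 was at 219.7, 191, 161 and 219.6 CPM at 1-week (log2 fold change 0.94 from 1-day, adjusted p = 4.42e-06), and Dnajb1 at 28.6 to 46.03 CPM.

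Of 20 glucocorticoid-responsive genes 8 were higher at 1-week and none lower. Fkbp5 had the smallest adjusted p of all genes that were higher, at 111, 144, 128 and 141 CPM (log2 fold change 1.43, adjusted p = 7.91e-15), and Zbtb16 was at 37.04 to 66.7 CPM. Rbm3, a cold-inducible RNA-binding protein, had the smallest adjusted p of those that were lower, at 314 to 426 CPM against 625 to 653 CPM at 1-day (log2 fold change -0.81, adjusted p = 8.53e-10). Of 19 clock genes 3 were higher and 7 lower (0.739% of all genes were lower). Among them, chosen after their values were seen, were the core activator Arntl at 19.3 to 34.7 CPM against 6.38 to 10.9 CPM and its output gene Dbp at 1.76 to 4.11 CPM against 8.74 to 22.6 CPM. The hour of collection is not given in the sources used here. Of 12 B cell genes 10 were lower at 1-week, with a median log2 fold change of -0.76.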

How the data were processed

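Poly(A)-selected RNA of whole knee joints was sequenced. The deposited file holds raw counts per gene, which the authors made with TopHat2 2.0.11 on mm10 and featureCounts on RefSeq genes and limited to genes with at least 2 counts in at least 5 libraries. Of 17313 rows, 3 with a repeated name were dropped. Names of 24 rows had been turned into dates and stayed in the fit. Counts were fitted with edgeR 4.0.16 (quasi-likelihood, TMM, R 4.3.3) on the 40 uninjured libraries of batch 1, with a coefficient for each of 9 groups, and injured joints with their references on 14 STR/ort libraries. Genes with an adjusted p below 0.05 over all 17310 genes and a fold change above 1.5 were called. CPM were scaled by TMM over all 100 libraries. Total counts were 6182016 to 20986027 in the 40 libraries. The fits of the first comparison and of injured against contralateral joints were also run on simulated counts, whose outcome is not given here.

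Members and the 38 gene lists were chosen with earlier results of these data known. Genes were named by rule: the 10 smallest adjusted p per direction with a mean of at least 1 CPM, up to 4 per direction of each list or else its 2 highest members, and the smallest adjusted p per direction of the interactions and of 1-week against 1-day. Alternatives were other scalings and filters, RUVg (used in the study), other sets of libraries, a replicate block, DESeq2 1.42.0, and leaving libraries out. The muscle covariate, the removal of before-injury libraries in pairs and 3 lists were chosen after seeing the data.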

Additional observations from a re-analysis of the deposited data

Results flagged for a closer look

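Single libraries far from the rest of their group were looked for in 324 sets of values (named genes and list sums in both groups), and 14 were found (4.32%), where chance gives about 1 in 20. Contralateral library 2 accounted for 5: Gbp2 at 113.6 CPM, Gbp3 at 84.65 CPM, the summed interferon-gamma-induced genes at 2830 CPM, the summed cell cycle genes at 3020 CPM and Ccl22 at 1.097 CPM. Contralateral library 3 was apart for Isg15 and for Ms4a2, a mast cell receptor chain, both at 4.764 CPM. Mcpt4, a mast cell protease, was at 6.781 CPM in contralateral library 1, Myh2 at 833.3 CPM in library 4 and Ucp1 at 3.626 CPM in library 5. Before injury, library 1 was apart for Pecam1, an endothelial adhesion protein, at 105.8 CPM and for the summed endothelial genes at 815 CPM, library 3 for Dnaja1 at 356.5 CPM and library 4 for the summed fast muscle genes at 132000 CPM.

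The change from 0-day to 1-day differed between STR/ort and C57BL/6 for 1598 genes and between STR/ort and MRL/MpJ for 1307 genes by the edgeR interaction. At the smallest adjusted p of each direction stood Glt8d1 with a log2 difference of 0.89 and Egr2 with -3.58 against C57BL/6, and Lipc with 1.45 and Jun with -1.85 against MRL/MpJ.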

How the results depend on the processing

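The causes of the shifts in counts of called genes were not tested. The contralateral change gave 1736 genes, the differences from C57BL/6 and MRL/MpJ 1598 and 1307. These became 102, 169 and 47 with RUVg, 363, 239 and 265 with the muscle covariate, and 1004, 830 and 403 without before-injury libraries 3 and 4. Without libraries 1 and 2 they became 2370, 2164 and 2024. Leaving out 1 library gave 1397 to 1973, 1158 to 1839 and 957 to 1545 genes. The 1-week change (324 genes) became 90 on its own groups, 361 with RUVg, 384 with the muscle covariate and 208 to 440 without 1 library, lowest without 1-week library 2. The injured change (631) ranged from 480 to 1008, highest without injured library 5, and was 482 with RUVg, of which 48.5% were lower against 59%. Housekeeping scaling made 85.6% of the MRL/MpJ differences lower against 68.6%. Other scalings, filters and DESeq2 (1636 genes) stayed within 1.5 times.

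The 0-day and 1-day joints came at different times and share only a number, and whether a number stands for 1 mouse in contralateral and injured joints is not known. Correlations of same-numbered deviations ran from -0.142 to 0.102 for the 4 pairs of the first comparison and from -0.21 to 0.392 for the 5 pairs of contralateral and injured joints (median 0.204, 3 over 0.1). Fitted on the groups of each contrast alone, the counts were 1567, 1479, 1412, 90 and 561 in the order above, and with the replicate block added to those fits 1305, 1408, 1346, 100 and 549. For the contralateral change, 328 genes were higher and 1239 lower on its groups alone. With the block 219 were higher and 1086 lower, against 535 and 1201 in the main fit.

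Named genes that changed sign included Chac1, Cytl1, Trim63, Aldoa, Ucp1 and Ucma, which had been called. Dsp was at -0.01999 with DESeq2's size factors, -0.06148 with housekeeping scaling, -0.194 with RUVg, -0.03267 on the contrast's groups, -0.02324 on all of batch 1, -0.0469 with the replicate block, -0.0191 with DESeq2, -0.1925 with the muscle covariate, -0.1373 without libraries 3 and 4, and -0.07718 to 0.1272 without 1 library. Fkbp5 was at -0.02959 with housekeeping scaling, and Ucp1 at 3.873 without libraries 3 and 4. With RUVg, log2 fold changes were -0.2345 for Actb, 0.3699 for Chac1, -0.4178 for Cytl1, -0.1714 for Mki67, -0.08568 for Top2a, 0.02617 for Trim63, 0.3553 for Trp63 and -0.2257 for Ucma. With the muscle covariate they were -0.145 for Actb, 0.0008086 for Aldoa, -0.2113 for Cytl1, -0.03519 for Mki67, -0.125 for Top2a, 0.2398 for Trp63 and -0.1047 for Ucma.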
